A study of Homo sapiens
Mus musculus with 2 samples.

Results

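The 10 genes described here, 5 human and 5 mouse, were chosen because the level of most of them had differed between 2 Drop-seq libraries of the same mix of cell lines, loaded at different concentrations. They are 10 of 29259 genes with a row in the tables (14519 human and 14740 mouse). The human genes are RPL41 (hg19_ENSG00000229117), TOMM5 (hg19_ENSG00000175768), POLR2L (hg19_ENSG00000177700), RPL39 (hg19_ENSG00000198918) and RPL38 (hg19_ENSG00000172809). The mouse genes are Rpl41 (mm10_ENSMUSG00000093674), Polr2l (mm10_ENSMUSG00000038489), Rpl39 (mm10_ENSMUSG00000079641), Rpl38 (mm10_ENSMUSG00000057322) and Rps29 (mm10_ENSMUSG00000034892). The set holds 4 human and mouse counterpart pairs, plus TOMM5 and Rps29. They are known as genes of short transcripts, but transcript lengths were not analysed here.

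Both libraries were of an equal mixture of 4 lymphocyte lines, and whether 1 preparation served both is not labelled: the human T cell lines Jurkat and TALL104, the mouse T cell line EL4 and the mouse B cell line IVA12. The cell suspension held 150 cells per µl for one library and 300 for the other, droplets were made on a Dolomite instrument, and no treatment was labelled. Drop-seq captures polyadenylated RNA on beads and counts molecules by unique molecular identifiers (UMIs). They are called the 150 and the 300 library. Each concentration had 1 library, so concentration cannot be told apart from any other difference between the libraries, no test was possible, and every interval given is a 95% interval for counting error only.

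RPL41, RPL39 and RPL38 are proteins of the large subunit of the cytosolic ribosome, and RPS29 is a protein of the small subunit. Ribosomal protein mRNAs are abundant in growing cells, and their products are made in matching amounts. POLR2L is a small subunit shared by RNA polymerases I, II and III, and TOMM5 is a small subunit of the TOM complex, through which proteins enter mitochondria.

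The table of the 150 library held 2000 barcodes and 2398956 UMIs, and that of the 300 library held 4000 barcodes and 8707135 UMIs. A barcode with at least 1000 UMIs, at least 90% of them from 1 species, was called a human or a mouse barcode. By this rule there were 87 human and 85 mouse barcodes in the 150 library, and 318 human and 685 mouse barcodes in the 300 library. Their median depth was lower in the second library, at 3713.5 against 6383 UMIs in human and 7211 against 12164 UMIs in mouse barcodes. Levels are therefore given as UMIs per 1000000 UMIs of the species (CPM), summed over barcodes. No barcode of either species was shared between the libraries.

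RPL41 and TOMM5 were lower by more than 4-fold in the 300 library in human barcodes, while POLR2L was at the same level in both libraries within counting error. The genes were chosen by these values, the CPM in the 2 libraries, so the values are a description and not evidence. RPL41 had 754 UMIs in the 150 library, or 1223 CPM (1137 to 1314), and 358 UMIs in the 300 library, or 270.2 CPM (243 to 300). Its log2 ratio, 300 over 150, was −2.18 (−2.36 to −2.0), a level 4.53-fold higher in the more dilute library. TOMM5 was a gene of low level, with 84 UMIs (136 CPM) against 39 UMIs (29.4 CPM) and a log2 ratio of −2.21 (−2.80 to −1.65). TOMM5 and RPL41 ranked 1 and 2 from the lowest of the 3845 human genes with at least 100 UMIs over both libraries.

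The other human ribosomal protein genes were lower by less. RPL38 went from 882 to 492 CPM (544 and 652 UMIs), a log2 ratio of −0.84 (−1.01 to −0.68). RPL39 went from 514 to 401 CPM (317 and 531 UMIs), a log2 ratio of −0.36 (−0.56 to −0.15). POLR2L, in contrast, had 161 and 167 CPM (99 and 221 UMIs) and a log2 ratio of 0.05 (−0.29 to 0.41), which became −0.02 under DESeq2 size factors, a shift common to all human genes. The label of a gene that differs between the libraries therefore did not hold for human POLR2L, which ranked 1809 of 3845.

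In mouse barcodes all 5 genes were lower in the 300 library, Polr2l and Rpl41 by more than 2-fold. Polr2l had 130 UMIs in the 150 library (123 CPM) and 173 UMIs in the 300 library (31.4 CPM), with a log2 ratio of −1.97 (−2.30 to −1.63). It ranked 4 from the lowest of 7071 mouse genes. Rpl41, the most abundant of the 10, went from 4434 (4308 to 4562) to 2154 (2116 to 2193) CPM on 4701 and 11883 UMIs, a log2 ratio of −1.04 (−1.09 to −0.99) and rank 46.

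Rps29, Rpl38 and Rpl39 were lower by 1.39-fold, 1.32-fold and 1.22-fold in mouse barcodes. Rps29 had 1142 and 819 CPM, with a log2 ratio of −0.48 (−0.57 to −0.39). Rpl38 had 802 and 605 CPM, with a log2 ratio of −0.41 (−0.51 to −0.30). Rpl39 had 1021 and 839 CPM, with a log2 ratio of −0.28 (−0.38 to −0.19). None of these 3 intervals reached a 2-fold difference. In the mouse barcodes of 1000 to under 2000 UMIs (12 and 109), only 2 of the 5 genes were lower in the 300 library. Polr2l was at −2.21 and Rpl41 at −0.40 there, and Rpl39, Rpl38 and Rps29 were at 0.76, 0.49 and 0.22. Each of these 5 intervals includes 0.

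**Figure D1:**
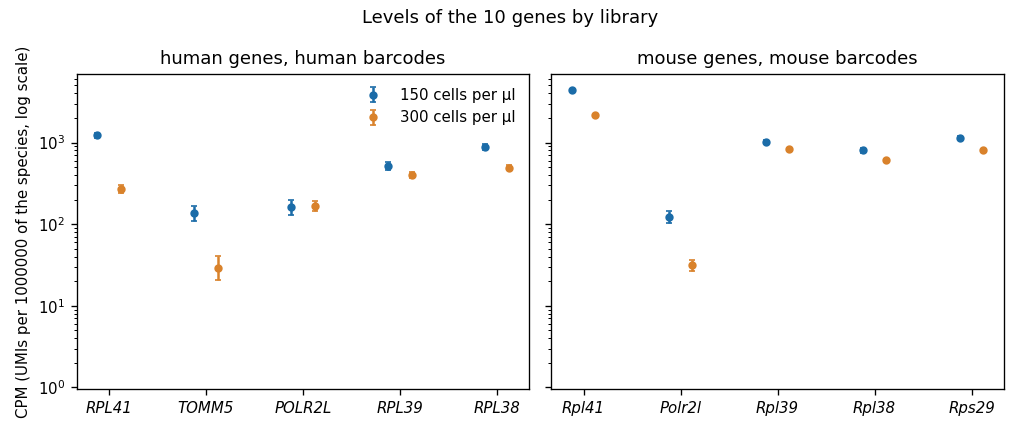
Level of each gene in CPM (y axis, log scale) in barcodes of its own species, with exact Poisson 95% intervals, in the 150 (blue) and 300 (orange) libraries. RPL41, TOMM5 and Polr2l are the genes with the widest gaps, and the POLR2L intervals overlap.

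Among all genes with at least 100 UMIs, 0.598% of human and 0.806% of mouse genes were past 2-fold lower, against 2 of 5 genes in each species here. All 10 genes passed the UMI minimum. Because this contrast chose the genes, nothing is read from that difference. The median log2 ratio over all genes was 0.08 in human and 0.16 in mouse barcodes. Relative to these medians RPL41 stood at −2.26, TOMM5 at −2.29, Rpl41 at −1.20 and Polr2l at −2.13. Just inside the 2-fold limit was Rpl41 at −1.04, and just outside it was RPL38 at −0.84.

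Few genes of the level of RPL41, TOMM5, Polr2l or Rpl41 had a ratio as low as theirs. This contrast chose the genes, and these are the lowest of them, so the counts are a description and not evidence. Of 346 human genes within 2-fold of the RPL41 level, none had a log2 ratio as low, and their median was −0.02. The lowest of them, at −1.82, was the unnamed gene hg19_ENSG00000197061, with 1098 and 667 UMIs. Of 2676 human genes of like level, none was as low as TOMM5. In mouse, 2 of 3159 genes of like level were as low as Polr2l, and 1 of 75 was as low as Rpl41. For the other human genes described here, the counts were 13 of 382 (RPL38), 104 of 643 (RPL39) and 994 of 2058 (POLR2L). For the other mouse genes they were 58 of 247 (Rps29), 74 of 368 (Rpl38) and 80 of 257 (Rpl39). Mouse genes other than the 5 were ordered by the higher of their log2 ratios in the 2 mouse groups described further on, and the lowest in that order was mm10_ENSMUSG00000028648, at −1.95, with 395 and 518 UMIs and a log2 ratio of −1.99 over all mouse barcodes.

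**Figure D2:**
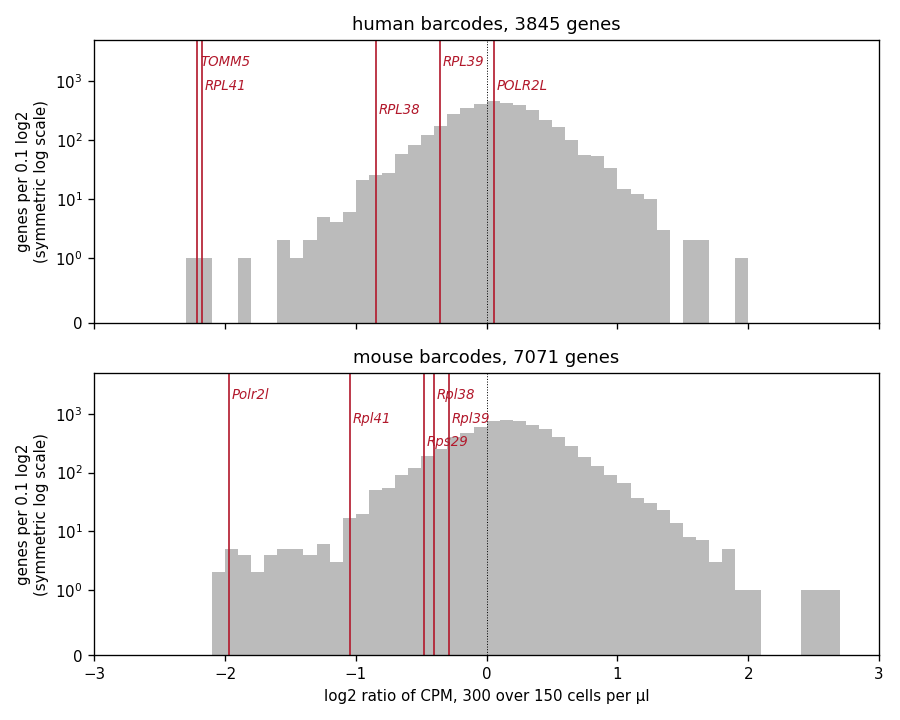
Number of genes (y axis, symmetric log scale) by log2 ratio of CPM, 300 over 150 (x axis), among genes with at least 100 UMIs, with the 10 genes as red lines. TOMM5 and RPL41 sit at the low end of the human genes and POLR2L near the centre.

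The counterpart pairs of RPL41 and POLR2L had unlike ratios in human and mouse, and the RPL39 pair had ratios with overlapping intervals. RPL41 was 4.53-fold and Rpl41 2.06-fold higher in the 150 library. Polr2l was 3.91-fold higher there, whereas the human POLR2L level in the 150 library was 0.963 of that in the other library. The RPL39 and Rpl39 log2 ratios differed by 0.08, and those of RPL38 and Rpl38 by 0.44. These differences between species were not tested.

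The lower levels of RPL41 and Rpl41 were spread over barcodes and did not come from a few of them. The barcode with the most RPL41 UMIs held 4.11% of that gene's UMIs in the 150 library and 1.96% in the 300 library. In the 150 library, 82 of 87 human barcodes had an RPL41 UMI, with a lowest level of 0, a median of 1068 and a highest of 2761 CPM. In the 300 library, 185 of 318 had one, with a median of 218 and a highest of 2058 CPM. The ranges overlapped, and the upper quartile of the second library (425) was below the lower quartile of the first (728). Rpl41 behaved in the same way, with quartiles of 3052 and 5231 CPM in the 150 library and of 1344 and 2682 in the 300 library. With barcodes weighted equally, the log2 ratios of mouse Rpl39 and Rpl38 shrank to −0.12 and −0.23, outside their counting intervals. Summed values give deep barcodes more weight, and whether the ratios of these genes vary with depth was not tested. The other 8 genes stayed within their intervals.

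Summed over its 5 genes, the share of a species' UMIs was 0.292% in human barcodes in the 150 library and 0.136% in the 300 library. In mouse barcodes it was 0.752% and 0.445%. The genes were chosen by this contrast in these barcodes, so the shares are a description and not evidence. Barcodes of a library are not replicates. The median share per human barcode was 0.268% and 0.117%, and 21 of 318 human barcodes in the 300 library (6.60%) were above the median of the other library. In mouse the medians were 0.747% and 0.410%, and 49 of 685 barcodes (7.15%) were above it. RPL41 held 41.9% and 19.9% of the human sum, and Rpl41 58.9% and 48.4% of the mouse sum. Without them the share was 0.169% and 0.109% in human and 0.309% and 0.229% in mouse barcodes, and 57 of 318 human (17.9%) and 167 of 685 mouse barcodes (24.4%) of the 300 library were above the median of the other.

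**Figure D3:**
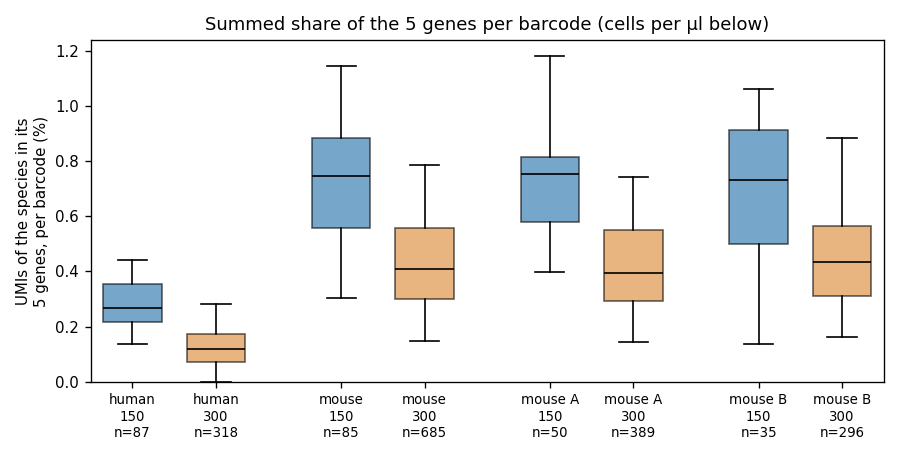
Share of each barcode's species UMIs that fell in the 5 genes of the species (y axis, %), as median, quartiles (box) and 5th and 95th percentiles (whiskers), by group and library. The medians were 0.268% and 0.117% in human and 0.747% and 0.410% in mouse barcodes.

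Depth differed between the libraries, so each barcode was thinned to 2000 UMIs, with 1 draw, and shallower barcodes were left out (5 human and 12 mouse in the 150 library, 36 human and 109 mouse in the 300 library). An RPL41 UMI remained in 87.8% (78.7 to 94.0) of human barcodes in the 150 library and in 39.4% (33.6 to 45.3) in the 300 library, against 97.6% and 62.4% before thinning. TOMM5 was seen in 24.4% and 4.96%, RPL38 in 82.9% and 55.3%, and RPL39 in 59.8% (48.3 to 70.4) and 50% (44.0 to 56.0) of human barcodes. POLR2L was seen in 25.6% (16.6 to 36.4) and 27.3% (22.2 to 32.9). The order of the libraries by detection was that of the levels for all 5 human genes, with overlapping intervals for RPL39 and POLR2L. Detection and levels come from the same UMIs, so this is a description and no support.

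In thinned mouse barcodes, Polr2l was seen in 31.5% (21.1 to 43.4) in the 150 library and 6.77% (4.86 to 9.14) in the 300 library, against 79.5% and 23.4% before thinning. Rpl41 was seen in 100% and 96.0%, close to the ceiling, and its mean was 8.97 and 4.06 UMIs per thinned barcode. Rps29 was seen in 84.9% (74.6 to 92.2) and 74.0% (70.2 to 77.5). Rpl39 was seen in 80.8% (69.9 to 89.1) and 74.8% (71.1 to 78.3), and Rpl38 in 76.7% (65.4 to 85.8) and 67.5% (63.5 to 71.3). For each of these genes the intervals of the 2 libraries overlap.

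As a measure of background, UMIs of each gene were counted in barcodes of the other species. Whether these UMIs came from free RNA was not tested. The species rule keeps only barcodes with few UMIs of the other species, which limits this background. At a median depth of 13411 and 8284 UMIs, thinned mouse barcodes held a human RPL41 UMI in 0 of 73 in the 150 library, which allows a share of up to 4.11% by the limit of 3 barcodes, and in 0 of 576 in the 300 library, which allows up to 0.521% by the same limit. Before thinning, 0.694% of these mouse barcodes of the 300 library had an RPL41 UMI. The thinned TOMM5 share of 4.96% in human barcodes in the 300 library stood against 0 of 576 mouse barcodes. Mouse Rpl41 was the gene with the highest share in the other species, at 17.1% and 13.5% of human barcodes, whose median depths were 6411 and 3952 UMIs. Polr2l was seen in 0 of 82 and 0 of 282 human barcodes.

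**Figure D4:**
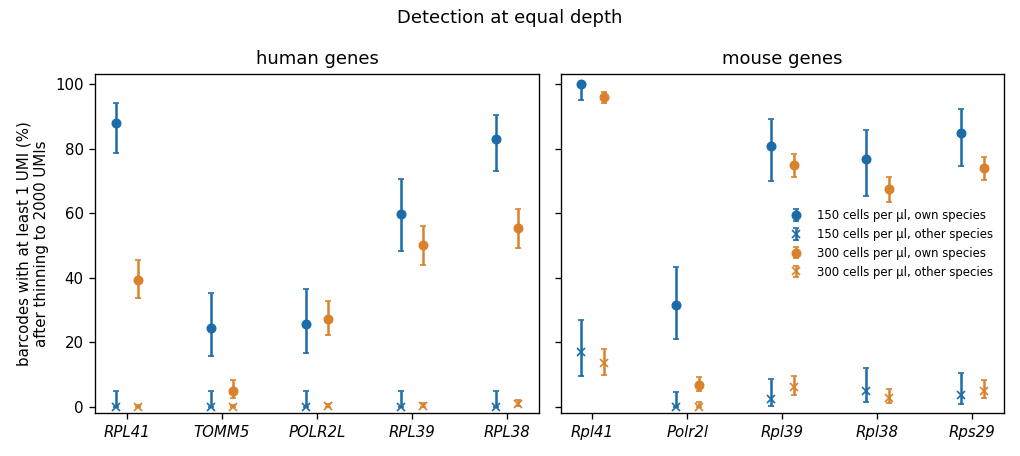
Share of barcodes with at least 1 UMI of each gene after thinning to 2000 UMIs (y axis, %), in barcodes of its own species (circles) and of the other species (crosses), with exact binomial 95% intervals. RPL41, TOMM5, RPL38 and Polr2l have the widest gaps between libraries, and own-species shares lie above the other-species shares in both.

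Barcodes that the rule did not use also differed. In barcodes under 1000 UMIs (1810 and 2876 barcodes), RPL41 had 130 and 64 UMIs, or 660 and 234 CPM, a log2 ratio of −1.49 (−1.95 to −1.05). RPL38 had 751 and 410 CPM there, a log2 ratio of −0.87 (−1.24 to −0.51). TOMM5 had 18 and 10 UMIs and POLR2L 24 and 44 UMIs, both under the minimum of 100, and RPL39 was at −0.05 (−0.52 to 0.43). In this class, 1.1% of 908 human genes were past 2-fold lower, and RPL41 ranked 3. These barcodes come from the same 2 libraries, so they are no replicate of the comparison.

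Among mouse UMIs in barcodes under 1000 UMIs, Rpl41 had 3250 and 2189 CPM, a log2 ratio of −0.57 (−0.66 to −0.48), a smaller difference than in mouse barcodes. Rps29 had a log2 ratio of −0.42 (−0.57 to −0.28). Polr2l had 35 and 38 UMIs, with a log2 ratio of −1.32 (−2.02 to −0.61). Rpl39, at −0.14 (−0.30 to 0.03), and Rpl38, at −0.02 (−0.20 to 0.17), had intervals that include 0. Of all 3624 mouse genes with at least 100 UMIs there, 0.469% were past 2-fold lower, and none of the 4 described here with that many UMIs was.

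In the 150 library, RPL41 and Rpl41 were higher in deep barcodes of their species than in barcodes under 1000 UMIs. In the 300 library the interval of this contrast includes 0 for both genes. Barcodes under 1000 UMIs had no species call, so this is no relation with depth within human or mouse barcodes. In the 150 library, RPL41 was 1.87-fold higher in human barcodes of at least 6000 UMIs (1234 CPM) than in barcodes under 1000 UMIs (660), a log2 difference of 0.90 (0.63 to 1.19). In the 300 library the levels were 298 and 234 CPM, with a log2 difference of 0.35 (−0.09 to 0.80). Rpl41 stood at 4465 and 3250 CPM in the 150 library, and at 2195 and 2189 in the 300 library. Other genes differed as well. Polr2l had log2 differences of 0.69 (0.14 to 1.28) in the 150 and 0.09 (−0.44 to 0.64) in the 300 library. Those of Rpl38 were 0.23 (0.04 to 0.41) and −0.19 (−0.30 to −0.08). RPL39 was higher in deep barcodes in both libraries, by 0.59 and 0.48. The 2 RPL41 intervals overlap, and the difference between the libraries in this contrast was not tested.

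**Figure D5:**
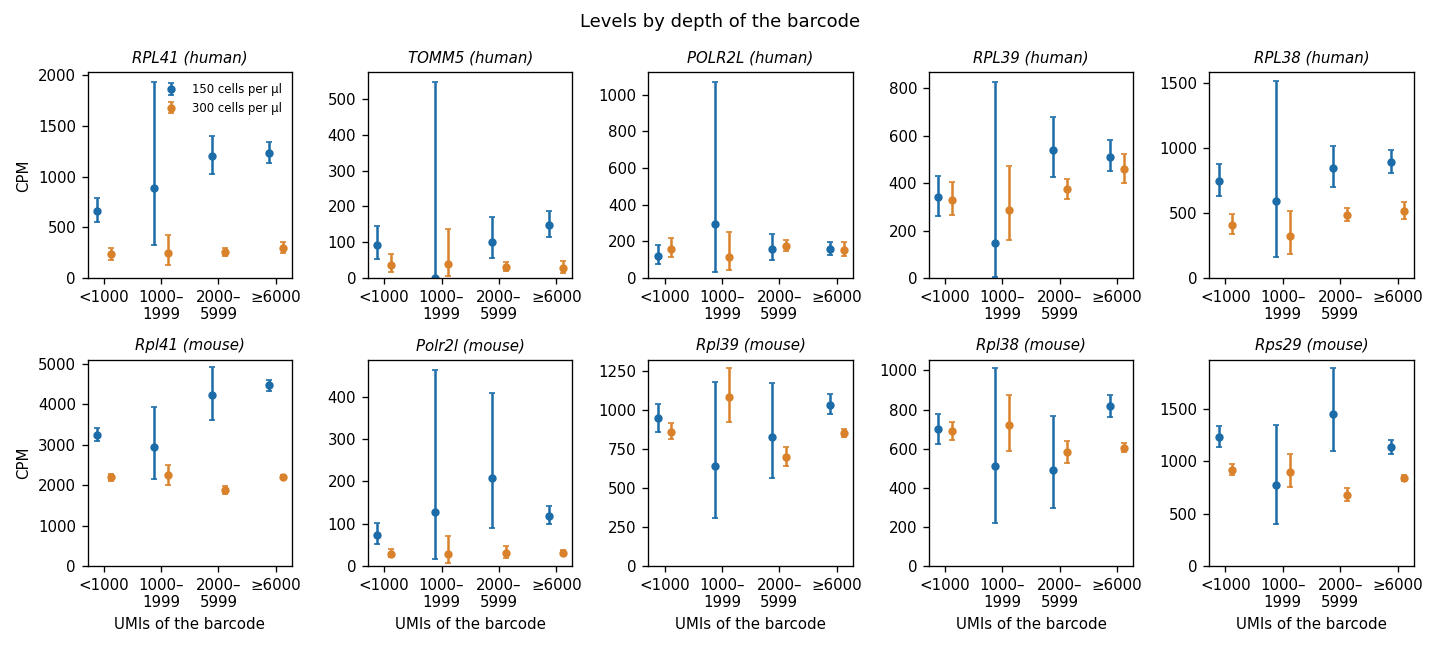
Level of each gene in CPM (y axis, linear, each panel with its own range) by UMIs of the barcode (x axis), with exact Poisson 95% intervals, in the 150 (blue) and 300 (orange) libraries. Barcodes under 1000 UMIs had no species call, and the deeper barcodes are those of the gene's species. In the 150 library RPL41 and Rpl41 are higher at 6000 or more UMIs than under 1000, and intervals are wide from 1000 to under 2000 UMIs, where the 150 library had 5 human and 12 mouse barcodes.

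In mixed-species barcodes (18 and 121), the UMIs were few. RPL41 had 14 and 21 UMIs, a log2 ratio of −1.82 (−2.86 to −0.73), and Rpl41 had 50 and 326 UMIs, a log2 ratio of −0.21 (−0.64 to 0.25). In human barcodes, mouse Rpl41 had 38 and 92 UMIs, a log2 ratio of −0.96 (−1.52 to −0.38). The other mouse genes there had intervals that include 0, with Rps29 at −0.90, Rpl38 at −1.10, Rpl39 at 0.18 and Polr2l at 1 UMI in each library. In mouse barcodes the human genes had few UMIs: RPL41 0 and 5, TOMM5 0 and 1, POLR2L 0 and 4, RPL39 0 and 11, and RPL38 4 and 17.

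Mouse barcodes were also split into a larger group, mouse A (50 and 389 barcodes), and mouse B (35 and 296 barcodes), by the first principal component of genes other than these 10. Identifiers could not be paired with marker names, so neither group is assigned to EL4 or IVA12. Polr2l had a log2 ratio of −1.78 (−2.21 to −1.35) in mouse A and −2.29 (−2.86 to −1.72) in mouse B. Rpl41 had −1.0 (−1.07 to −0.93) and −1.09 (−1.16 to −1.01). Rpl39 was at −0.31 and −0.25, Rpl38 at −0.42 and −0.38, and Rps29 at −0.58 and −0.33. All 5 genes were lower in the 300 library in both groups, where 0.804% of 5472 and 1.3% of 4603 genes were past 2-fold lower.

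Between the mouse groups, Rpl38 was higher in mouse B in both libraries. In the 150 library it had 958 CPM in mouse B and 682 in mouse A, a log2 difference of 0.49 (0.29 to 0.69). In the 300 library it had 737 and 508 CPM, a log2 difference of 0.54 (0.44 to 0.64). Rpl39 was lower in mouse B, by −0.23 (−0.41 to −0.05) and −0.17 (−0.26 to −0.09) on the log2 scale. Rps29 was lower in mouse B as well, by −0.35 (−0.52 to −0.18) and −0.09 (−0.18 to −0.01). Polr2l differed by −0.11 (−0.64 to 0.41) and −0.62 (−1.10 to −0.15), on few UMIs. Rpl41 was higher in mouse B, by 0.17 (0.09 to 0.26) and 0.09 (0.04 to 0.14). Each of the 5 genes thus had the same order of the groups in both libraries, with an interval that includes 0 for Polr2l in the 150 library. Groups made from expression are not replicates, and these differences were not tested.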

How the data were processed

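Each library's file, as deposited by the authors, held raw UMI counts, with genes in rows and barcodes in columns. The submitters' processing notes name hg19, mm10 and STAR 2.4.2a. They also list Cell Ranger 1.2.0, which in the study's methods is the name of the combined reference, the Drop-seq reads having gone through a Drop-seq pipeline. Whether these counts came from downsampled reads is not given in the sources used here. A gene without a row counted as 0 UMIs. Reads shared with near-identical copies could be lost or split, so these levels are uncertain. By human symbols, RefSeq lists 7 pseudogenes of RPL41, 41 of RPL39, 6 of RPL38 and 1 each of TOMM5 and POLR2L. It lists 33 of human RPS29, a gene not analysed here. Pseudogenes of the mouse genes were not counted, and the mouse levels may be uncertain in the same way.

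Counts were summed over barcodes with Python 3.11.15, numpy 2.4.6, scipy 1.17.1 and pandas 2.3.3. Intervals were exact Poisson for levels, exact conditional binomial for ratios and exact Clopper-Pearson for shares, at 95%, and cover counting error only. Beside a share of 0 the limit given is that of 3 counts. Ratios were set beside all genes with at least 100 UMIs over both libraries. The ratio code was tested on simulated data. Scaling factors came from edgeR 4.0.16 (TMM) and DESeq2 1.42.0 (size factors) in R 4.3.3, with no model fitted. No doublet caller was run. The tables shared 1 barcode, which was no human or mouse barcode in both.

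The genes, lists and rules were chosen with earlier results of these data known. Named genes were the 10 genes and, of the 5 other genes per species with the lowest ratio among those with at least 200 UMIs (in mouse, the higher of the ratios in the 2 mouse groups), the lowest, since identifiers had no names: 0 were paired with a symbol. Counterparts mouse Tomm5 and human RPS29, gene lists, cell type markers and transcript lengths were for that reason not analysed here, and no sequences are shown.

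The mouse groups were redefined once. The split first computed, on the 2000 genes with the highest variance, followed depth (correlation with log depth of size 0.327 over barcodes). Of 4 versions compared, that one included, with their depth correlations and the counts of a few genes in view, 2000 genes ranked by dispersion within 20 level bins were used (0.0538), and 96.5% of mouse barcodes kept their group. The few genes in view were identifiers recalled from memory as cell type markers, and could not be checked against names.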

Additional observations from a re-analysis of the deposited data

Results flagged for a closer look

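POLR2L and its mouse counterpart Polr2l had log2 ratios, 300 over 150 cells per µl, of opposite sign: 0.05 in human and −1.97 in mouse barcodes, a difference, mouse minus human, of −2.02. The human interval (−0.29 to 0.41) includes 0, and its ratio is smaller than the shift that TMM or DESeq2 scaling gives every human gene. The difference was not tested, since each concentration had 1 library.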

How the results depend on the processing

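Over 130 values of the 10 genes under alternatives, 105 stayed within the counting interval of the reported log2 ratio, 24 moved outside it and 1 reversed: Rpl38 was at 0.24 in barcodes of 2000 to under 6000 UMIs, where it had 19 UMIs at 150 cells per µl. The 105 include 10 from leaving out the shared barcode, which changed no value. They also include 10 from the denominator without the 10 genes, which moved Rpl41 only from −1.041 to −1.046. Neither setting could move a gene far, so the 105 overstate how little the values depend on processing. The planned thinning of the ratios, to 2000 UMIs of the species, used 1 draw. It was separate from the draw behind the detection shares, which thinned the UMIs of both species together. The draw for the ratios moved 5 genes, RPL39 to −0.72 and Rpl39 to −0.07 among them. After those values were seen the mean of 50 draws was added, which moved 2 genes (Rpl41 at −1.13 and Rps29 at −0.62), and both versions are counted here. POLR2L was at −0.25 with 1 draw and 0.10 with 50. The number of human genes past 2-fold lower fell from 2 to 1 in barcodes of 2000 to under 6000 UMIs, where TOMM5 missed the UMI minimum. In the same barcodes the mouse count stayed at 2 with other genes: Polr2l (8 and 23 UMIs, −2.73) missed the minimum and Rps29, at −1.09 against −0.48, was past 2-fold beside Rpl41. The number of mouse genes past 2-fold lower was 2, but 1 in mouse A of the split first computed, where Rpl41 was at −1.0. That split, the denominator without the 10 genes and the summed share without RPL41 and Rpl41 were also added after seeing the data.

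The share of all genes past 2-fold lower rose to 1.18% (human) and 1.52% (mouse) with a minimum of 20 UMIs per gene, and to 0.962% and 1.47% under TMM. TMM shifted all log2 ratios by −0.07 in human and −0.16 in mouse barcodes. It moved the split of human genes past 2-fold from 23 lower and 45 higher to 37 and 33, and of mouse genes from 57 and 198 to 104 and 107. A denominator without all ribosomal protein genes was not run, since identifiers had no names. No paired analysis was possible because each concentration had 1 library. TOMM5, POLR2L and Polr2l had few UMIs outside human and mouse barcodes, which limits their values there.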
